A study of Homo sapiens with 11 samples.

Results

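RNA levels of 4 genes of the TGF-beta and growth axis, TGFB1, LTBP1, ID3 and MYC, were followed in MDA-MB-231 cells after siRNA against BCL11A, MBNL1 or both. The genes were taken by name from the first column of the authors' table of changed genes, in which all 4 were found among 8085 genes with values, and each of the 4 has a value in every one of the 11 libraries. MDA-MB-231 is an established line of breast cancer cells that came from a pleural effusion. Cells were transfected with a pool of siRNAs against BCL11A, a zinc finger repressor (siBCL11A, 100 nM, n = 3), a pool against MBNL1, an RNA-binding splicing regulator (siMBNL1, 100 nM, n = 3), both pools at 50 nM each (siB/siM, n = 3) or non-targeting siRNA (siNS, 100 nM, n = 2), and RNA was taken after 48 h. The series title names BCL11A as a promoter of breast cancer spread, and the comparisons ask what each knockdown did relative to siNS and whether the knockdowns differed from each other.

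TGFB1 encodes transforming growth factor beta 1, a cytokine that is secreted in a latent form, held by its own propeptide. LTBP1, the latent TGF-beta binding protein 1, is linked to that propeptide and anchors the latent complex in the extracellular matrix, until integrins or proteases release the ligand to its receptors and the SMAD proteins carry the signal to the nucleus. ID3 lacks a DNA-binding region and holds E-protein transcription factors away from DNA, and its gene is a known target of the BMP branch of the pathway. MYC is a transcription factor that pairs with MAX on E-box sequences and drives ribosome production, nucleotide synthesis and growth. In many epithelial cells TGF-beta signalling lowers both ID3 and MYC, and in advanced breast cancer cells it is known for its link with invasion.

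The promoter sequences of TGFB1, LTBP1 and ID3 are shown because a repressor was knocked down and TGFB1 and LTBP1 moved together. Each is the 250 bases before an annotated start, 5′ to 3′ on the gene's strand, from RefSeq on GRCh38.p14, a build other than the hg19 of the deposited files, which give no gene positions. Capitals mark the one motif that was found among TGACCA, the core motif known for BCL11A, CACGTG, the E-box of MYC and MAX, and CAGACA, the SMAD box, each searched on both strands. TGFB1 lies on chromosome 19 (chr19:41353923-41354172, minus strand), LTBP1 on chromosome 2 with a first start (chr2:32946703-32946952, plus strand) and a start further down (chr2:33134119-33134368, plus strand), and ID3 on chromosome 1 (chr1:23559502-23559751, minus strand).
TGFB1: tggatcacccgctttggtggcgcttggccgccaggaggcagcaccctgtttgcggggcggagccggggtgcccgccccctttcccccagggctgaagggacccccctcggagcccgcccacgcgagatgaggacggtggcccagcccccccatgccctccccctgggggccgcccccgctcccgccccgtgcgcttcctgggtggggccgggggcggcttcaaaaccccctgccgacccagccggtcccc
LTBP1, first start: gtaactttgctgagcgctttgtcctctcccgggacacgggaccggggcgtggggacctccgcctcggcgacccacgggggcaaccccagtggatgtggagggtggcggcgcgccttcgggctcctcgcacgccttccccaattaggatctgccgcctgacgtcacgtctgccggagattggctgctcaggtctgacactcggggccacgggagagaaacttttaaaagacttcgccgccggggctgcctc
LTBP1, start further down: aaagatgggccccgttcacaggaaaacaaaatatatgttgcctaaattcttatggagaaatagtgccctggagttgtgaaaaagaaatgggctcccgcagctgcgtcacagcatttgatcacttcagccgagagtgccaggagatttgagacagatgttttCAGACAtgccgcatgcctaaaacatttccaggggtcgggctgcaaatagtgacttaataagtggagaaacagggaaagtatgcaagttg
ID3: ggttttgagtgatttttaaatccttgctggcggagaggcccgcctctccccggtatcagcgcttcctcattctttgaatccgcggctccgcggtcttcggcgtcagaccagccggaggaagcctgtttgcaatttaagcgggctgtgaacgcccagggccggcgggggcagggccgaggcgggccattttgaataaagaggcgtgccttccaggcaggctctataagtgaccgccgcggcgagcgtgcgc
The SMAD box CAGACA stands 89 bases before the start further down in LTBP1, and the letters TGACCA and CACGTG are in none of the 4 windows shown. The window of one more annotated LTBP1 start, which overlaps the last LTBP1 window and is not printed, holds the same motif as TGTCTG 121 bases before that start. Of 35093 RefSeq promoter windows of this length, 9.19% hold TGACCA, 6.34% hold CACGTG and 13.6% hold CAGACA on either strand. The TGFB1 window is 76.8% G and C, against 66.4% and 45.2% in the 2 LTBP1 windows and 62% in the ID3 window. The deposited levels are per gene, so they do not show which LTBP1 start was used.

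Levels are given as RPKM, reads per kilobase of gene and mega-read of the library, and changes as differences of mean log2(RPKM + 1) with their standard error, which understates the change of a low gene. The depth worked out from the RPKM steps was 20.04 to 34.91 M reads per library (M, mega-reads). It gave 397 to 1022 reads per library for TGFB1, 276 to 1181 for ID3 and 1742 to 5210 for MYC, and counting error alone then has an SD of 3.13 to 5.02%, 2.91 to 6.02% and 1.39 to 2.4% of the value. The reads behind LTBP1 could not be resolved, and the authors' deposited table gives it a mean of 92.4, 105 and 88.6 CPM in its siBCL11A, siMBNL1 and siB/siM blocks. MBNL1, targeted in 2 of the groups, had 3.17, 3.52 and 2.55 RPKM in siMBNL1 and 3.53, 3.65 and 3.56 RPKM in siB/siM, against 10.2 and 9.77 RPKM in siNS, while siBCL11A libraries had 27.7, 27.5 and 27.6 RPKM. BCL11A has no value in the table, so its own level is not analysed here. The table lists only genes past the authors' threshold against siNS, so that a call against siNS is partly fixed by the listing. The labels do not say whether replicates are separate cultures, and p-values measure only the spread between these libraries, which may be technical. A lower level can reflect less RNA per cell or fewer cells that carry it, and bulk libraries cannot tell these apart.

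TGFB1, the ligand, fell in all 3 knockdowns, to between 45% and 47.4% of its siNS mean. It had 6.33, 7.02 and 7.92 RPKM in siBCL11A, 7.23, 7.57 and 6.75 RPKM in siMBNL1, and 6.53, 8.57 and 7.32 RPKM in siB/siM, against 16.9 and 14.6 RPKM in siNS. Every knockdown library was below both siNS libraries, and the 3 knockdown groups overlapped one another. Group means were 45% of the siNS mean in siBCL11A, 45.6% in siMBNL1 and 47.4% in siB/siM. The log2 change was −1.05 ± 0.107 in siBCL11A (limma, adjusted p = 1.53e-05), −1.03 ± 0.107 in siMBNL1 (adjusted p = 2.53e-05) and −0.99 ± 0.107 in siB/siM (adjusted p = 2.42e-05). No difference between knockdowns passed the test for TGFB1. The siBCL11A minus siMBNL1 difference was −0.02, with a 95% interval of −0.23 to 0.19 (limma, adjusted p = 1). The siB/siM level differed from that in siBCL11A by 0.06 (interval −0.14 to 0.27) and from that in siMBNL1 by 0.04 (interval −0.17 to 0.25), each with an adjusted p of 1.

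LTBP1, the binder, was lower in every knockdown too, but its fall was graded. The libraries had 8.74, 9.28 and 9.03 RPKM in siBCL11A, 12.6, 12 and 11.6 RPKM in siMBNL1, and 8.78, 7.74 and 7.75 RPKM in siB/siM, against 20.8 and 21.9 RPKM in siNS. The siMBNL1 libraries sat between siNS and the other knockdowns with no overlap, and the siB/siM and siBCL11A libraries overlapped. The log2 change was −1.16 ± 0.0664 in siBCL11A (limma, adjusted p = 1.81e-07), −0.77 ± 0.0664 in siMBNL1 (adjusted p = 5.7e-06) and −1.30 ± 0.0664 in siB/siM (adjusted p = 8.87e-08), so the means were 42.2%, 56.5% and 37.9% of the siNS mean. LTBP1 was lower in siBCL11A than in siMBNL1 by a log2 difference of −0.38 ± 0.0594 (limma, adjusted p = 0.00279), and lower in siB/siM than in siMBNL1 by −0.53 ± 0.0594 (adjusted p = 0.000433). The difference between siB/siM and siBCL11A was −0.14, with an interval of −0.27 to −0.01, and did not pass after adjustment (limma, adjusted p = 0.773). In order of level, siNS stood highest, siMBNL1 next, and siBCL11A and siB/siM, which did not differ past the threshold, lowest.

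ID3, the inhibitor of E proteins, moved the other way and rose most where the BCL11A pool was present. It had 23.5, 24.2 and 28.9 RPKM in siBCL11A, 16.6, 13.4 and 14.3 RPKM in siMBNL1, and 22.1, 24.7 and 26.7 RPKM in siB/siM, against 11.1 and 11.8 RPKM in siNS. The siBCL11A and siB/siM libraries overlapped each other and lay above all siMBNL1 libraries, which in turn lay above both siNS libraries. The log2 change was 1.09 ± 0.107 in siBCL11A (limma, adjusted p = 1.12e-05) and 1.03 ± 0.107 in siB/siM (adjusted p = 1.62e-05), or 2.23 and 2.14 times the siNS mean. In siMBNL1 the change was 0.34 ± 0.107, or 1.29 times the siNS mean, and lay near the threshold (limma, adjusted p = 0.044). That call was lost with the replicate number as a block (0.29, limma, adjusted p = 0.0913), without either siNS library (0.30 with adjusted p = 0.295 without replicate 1, 0.38 with adjusted p = 0.126 without replicate 2) and without siMBNL1 replicate 1 (0.26, adjusted p = 0.176). It was also lost without siMBNL1 replicate 3 (adjusted p = 0.0727), siB/siM replicate 2 (adjusted p = 0.0587) or siBCL11A replicate 2 (adjusted p = 0.054), with the limma change at 0.36, 0.34 and 0.34.

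Between knockdowns, ID3 was higher in siBCL11A than in siMBNL1 by 0.75 ± 0.0955 on the log2 scale (limma, adjusted p = 0.000628). It was higher in siB/siM than in siMBNL1 by 0.70 ± 0.0955 (limma, adjusted p = 0.00183). The siB/siM minus siBCL11A difference was −0.05, with an interval of −0.26 to 0.15 (limma, adjusted p = 1), with the BCL11A pool at 50 nM and 100 nM.

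MYC, the transcription factor of growth, also rose in every knockdown, and least in siMBNL1. It had 52.8, 53.2 and 55.6 RPKM in siBCL11A, 41, 36.4 and 43.4 RPKM in siMBNL1, and 55.6, 55 and 59 RPKM in siB/siM, against 32.4 and 31.9 RPKM in siNS. As for ID3, the siMBNL1 libraries formed a middle group that overlapped neither siNS nor the other knockdowns. The log2 change was 0.73 ± 0.0716 in siBCL11A (limma, adjusted p = 1.17e-05), 0.31 ± 0.0716 in siMBNL1 (adjusted p = 0.00736) and 0.79 ± 0.0716 in siB/siM (adjusted p = 5.69e-06), so the means were 1.67, 1.25 and 1.76 times the siNS mean. Without siNS replicate 2 the siMBNL1 change was 0.30 (limma, adjusted p = 0.0618). MYC was higher in siBCL11A than in siMBNL1 by 0.41 ± 0.0641 (limma, adjusted p = 0.00277) and higher in siB/siM than in siMBNL1 by 0.48 ± 0.0641 (adjusted p = 0.00145). The siB/siM minus siBCL11A difference was 0.07, with an interval of −0.07 to 0.21 (limma, adjusted p = 1).

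**Figure D1:**
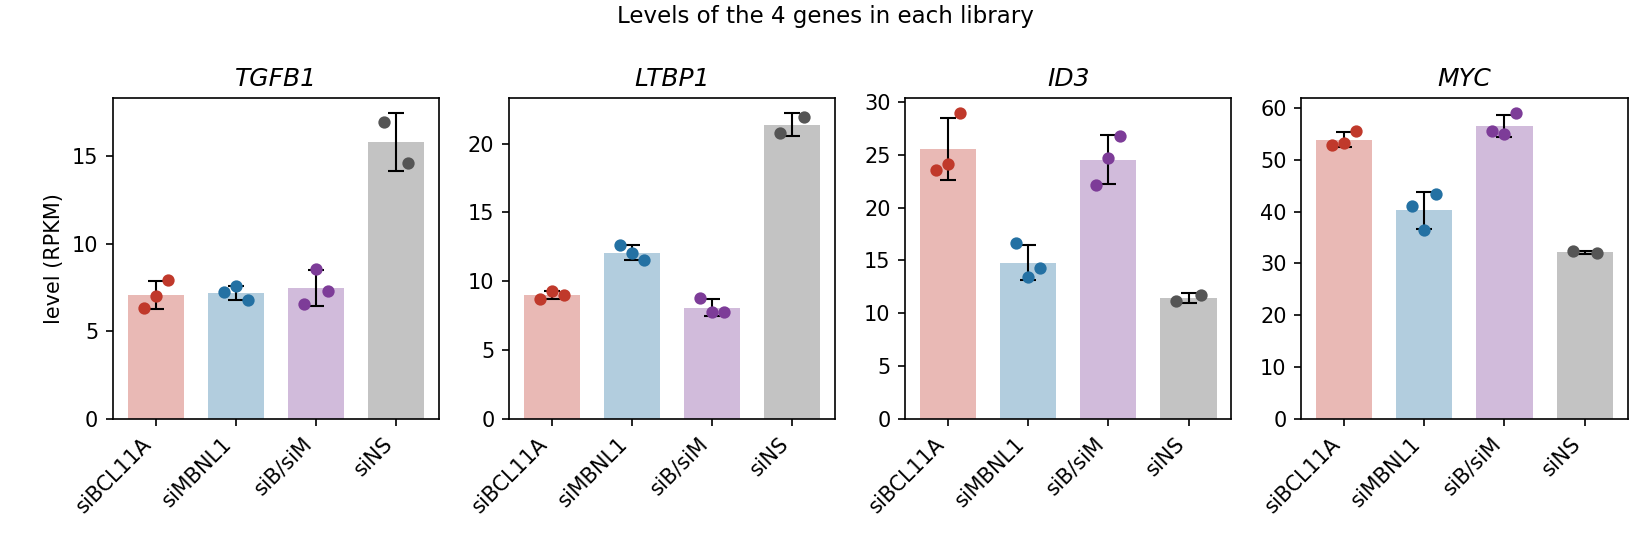
Level of TGFB1, LTBP1, ID3 and MYC in each library (points, RPKM) with the mean (bar) and SD (whisker) of siBCL11A, siMBNL1, siB/siM (n = 3 each) and siNS (n = 2). TGFB1 lies between 6.33 and 8.57 RPKM in all knockdown libraries, against 14.6 and 16.9 RPKM in siNS, while LTBP1, ID3 and MYC show siMBNL1 between siNS and the other knockdowns.

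**Figure D2:**
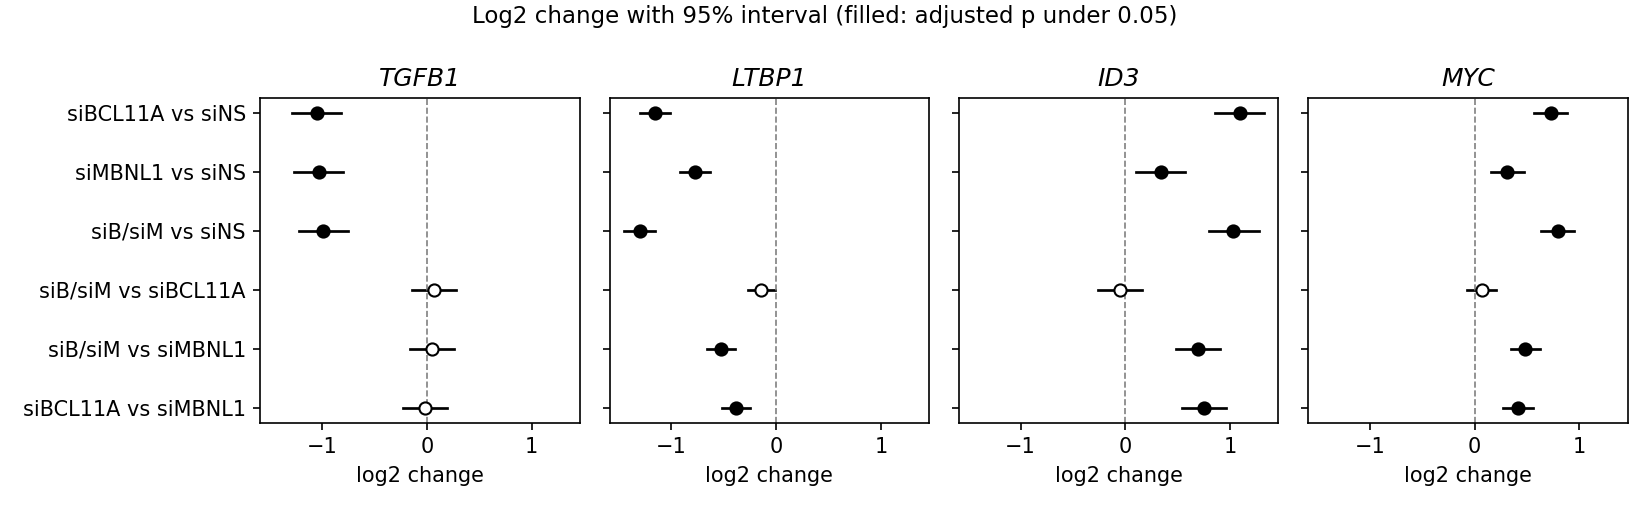
Log2 change of each gene (points) with its 95% interval (lines) in 6 comparisons, the group named first over the second; filled points have an adjusted p under 0.05. For TGFB1 the 3 comparisons between knockdowns lie at 0.06, 0.04 and −0.02, while for LTBP1, ID3 and MYC both comparisons with siMBNL1 are filled.

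Over the whole table, calls between knockdowns were fewer than calls against siNS. The table lists only genes past the authors' threshold against siNS, so this contrast is partly fixed by the listing. In siBCL11A, 2 of the 4 genes were higher and 2 lower than in siNS, where 42.3% of 5360 genes were called higher and 46.9% lower. In siMBNL1 the same counts stood beside 45.2% higher and 49.1% lower of 4690 genes. In siB/siM they stood beside 51.3% higher and 35.5% lower of 6700 genes (3440 and 2379, or 2552 and 2601 after quantile normalization). Between siBCL11A and siMBNL1, ID3 and MYC were among the 7.02% of 3376 genes called higher and LTBP1 among the 11.9% called lower (237 higher and 401 lower, or 167 and 641 after quantile normalization). Between siB/siM and siMBNL1, ID3 and MYC were among the 5.76% of 3927 genes called higher (226). LTBP1 was among the 5.81% called lower (228). After quantile normalization these counts were 84 and 738, and the median over the 3149 genes with values in all blocks moved by −0.14. Between siB/siM and siBCL11A, 0 of the 4 were called by limma, where 1.77% of 4511 genes were called higher and 0.266% lower (80 and 12, or 29 and 16 after centring on the median and 40 and 116 after quantile normalization). LTBP1 was the 1 of the 4 with an unadjusted limma p under 0.05, and 1173 of all 4511 genes had one. With the replicate number as a block in these 2 groups alone, 39 genes were called in place of 92, and still 0 of the 4.

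The combined knockdown was also set against the mean of the single knockdowns, with each pool at 50 nM in place of 100 nM. LTBP1 was lower by −0.33 ± 0.0514 (limma, adjusted p = 0.0276), among 0.921% of 3149 genes called lower, where 0.857% were called higher (29 and 27, or 42 and 13 after centring and 246 and 9 after quantile normalization). The LTBP1 call was lost without replicate 2 or 3 of siB/siM, 2 or 3 of siBCL11A or 1 or 2 of siMBNL1, with a change of −0.34 to −0.31 and a limma adjusted p of 0.0535 to 0.229. ID3 differed by 0.32 ± 0.0827 (limma, adjusted p = 0.224), MYC by 0.28 ± 0.0555 (adjusted p = 0.0897) and TGFB1 by 0.05 ± 0.0832 (adjusted p = 1).

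Per length, MYC was the highest of the 4 genes in every library. In both siNS libraries the order was MYC, LTBP1, TGFB1 and ID3, and in all siBCL11A, siMBNL1 and siB/siM libraries ID3 stood second, above LTBP1 and TGFB1. Within groups, the SD was 2.77% of the mean for MYC in siBCL11A, 8.84% in siMBNL1, 3.8% in siB/siM and 0.987% in siNS. TGFB1 had an SD of 11.3%, 5.73%, 13.8% and 10.5% of its mean in the same groups, more than MYC except in siMBNL1. Library 3 of siBCL11A was the highest of its group for TGFB1, ID3 and MYC.

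The authors' deposited table gives log2 values for the same genes as siNS over knockdown. For TGFB1 it lists 1.31 in the siBCL11A block, 1.13 in siMBNL1 and 1.075 in siB/siM, and for LTBP1 1.29, 0.82 and 1.40. For ID3 the authors' deposited table lists −1.04, −0.37 and −1.096, and for MYC −0.72, −0.32 and −0.81. Every direction is the one given here, but both sets of values come from the same libraries, so this is no independent check. The siBCL11A values of the authors' deposited table follow the first library of the group alone, and across genes their difference from that library has an SD of 0.00468, against 0.109 for the mean of the 3 libraries. The authors' deposited list of genes higher in siBCL11A holds ID3, at a ratio of 2.23, and the authors' deposited list of lower genes holds TGFB1 and LTBP1, at ratios of 2.22 and 2.37 (siNS over siBCL11A). MYC is in neither list.

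Of the ligands of the TGF-beta family, TGFB1 among them, most of those with values were called lower. A ligand has a value only where it passed the authors' test against siNS. Of 15 ligand genes, TGFB1 included, 6 had values in siBCL11A and all 6 were called lower, with a median log2 change of −0.60 (−0.22 over all genes tested). In siMBNL1, 7 of 8 were lower and 1 higher (median −0.51, against −0.25), and in siB/siM 6 of 8 were lower and 2 higher (median −0.40, against 0.24). The 0.24 is over the 6700 genes listed for siB/siM. Over the 3149 genes with values in all blocks, the siB/siM median was −0.18. Of all genes tested, 46.9% were called lower in siBCL11A, 49.1% in siMBNL1 and 35.5% in siB/siM. Called higher were 42.3%, 45.2% and 51.3%, in the same order. In siB/siM, TGFB2 was not called higher under the replicate block or after quantile normalization, and GDF15 not lower after centring on the median. GDF5, a ligand of joint formation, changed by −1.04, −0.70 and −0.98 in siBCL11A, siMBNL1 and siB/siM. BMP4, a bone morphogenetic protein, changed by −0.63, −0.99 and −0.55, and was higher in siBCL11A than in siMBNL1 by 0.36, a call not made after quantile normalization. These changes are limma estimates on listed genes, and genes without a value in a block are not analysed there.

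The latent complex and matrix genes with values were lower in each knockdown. Of 10 genes, LTBP1 included, all 4 with values were lower in siBCL11A (median log2 change −0.80, against −0.22 over all genes). All 5 with values were lower in siMBNL1 (−0.71, against −0.25) and all 6 in siB/siM (−0.48, against 0.24). In siB/siM, FBN1 and FN1 were not called under the replicate block. The shares of all genes called lower were 46.9%, 49.1% and 35.5%. Over genes with values in all blocks, the siB/siM median was −0.18 in place of 0.24. LTBP3, a second binder of latent TGF-beta, changed by −0.86, −0.82 and −0.64 in siBCL11A, siMBNL1 and siB/siM, and LTBP2, a relative that binds fibrillin, by −0.74, −0.71 and −0.78. In siBCL11A against siMBNL1, LTBP1 was the 1 gene of 4 called, beside 7.02% of all genes called higher and 11.9% lower. LTBP2 and LTBP3 each differed by −0.03. Whether LTBP1 differs from its relatives in this respect was not tested.

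Among genes that release the ligand from its latent form, 8 of 9 with values (12 in the list) were lower and 1 higher in each of the 3 knockdowns, with medians of −0.64 in siBCL11A, −0.39 in siMBNL1 and −0.44 in siB/siM (−0.22, −0.25 and 0.24 over all genes, of which 46.9%, 49.1% and 35.5% were lower). The siB/siM median of all genes was −0.18 in place of 0.24 over those with values in all blocks. Of all genes, 42.3% were called higher in siBCL11A, 45.2% in siMBNL1 and 51.3% in siB/siM. In siMBNL1, FURIN was not called under the replicate block, after centring or after quantile normalization, which left 5 lower. ITGB8, the beta subunit of an integrin that activates latent TGF-beta, changed by −0.97, −0.65 and −0.96 in the same order. MMP14, a membrane metalloprotease, changed by −1.18 in siBCL11A and −0.91 in siB/siM, and by −0.25 in siMBNL1, a call not made after quantile normalization. MMP14 was lower in siBCL11A than in siMBNL1 by −0.94, and so were PLAU, the urokinase that activates plasminogen, by −0.46 and ITGB8 by −0.32. ITGB3, an integrin beta subunit, was the gene of this list that rose, by 0.60, 0.65 and 0.77.

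Receptors fell wherever they were called, with 3 of 4 lower in siBCL11A, 5 of 5 in siMBNL1 and 5 of 5 in siB/siM, of 12 in the list, beside 46.9%, 49.1% and 35.5% of all genes. BMPR2 in siMBNL1 was not called under the replicate block or after quantile normalization. TGFBR1, the type I receptor kinase, changed by −0.84 in siBCL11A, −0.57 in siMBNL1 and −0.86 in siB/siM, and its difference between siBCL11A and siMBNL1, −0.27, did not pass the test. TGFBR2, the receptor that binds the ligand first, changed by −0.48 in siBCL11A and −0.63 in siB/siM and has no value in siMBNL1. ACVR1, a receptor of the BMP branch, changed by −0.83 in siMBNL1 and −0.54 in siB/siM. Of 8 SMAD genes and partners, SMAD3, which carries the TGF-beta signal, changed by −0.30, −0.33 and −0.40 in siBCL11A, siMBNL1 and siB/siM, and SMAD5, of the BMP branch, by 0.72, 0.66 and 0.64. TRIM33, a SMAD partner, was the remaining one with values, at −0.25 in siMBNL1 and −0.24 in siB/siM.

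Inhibitors of the pathway were mixed, with 4 of 6 lower and 1 higher in siBCL11A, 5 of 7 lower and 1 higher in siMBNL1, and 4 of 7 lower and 2 higher in siB/siM, of 16 in the list, beside 46.9%, 49.1% and 35.5% of all genes lower. Calls not made in some settings were FKBP1A in siBCL11A (replicate block, centring), SKI in siMBNL1 (replicate block, centring, quantile normalization) and FSTL3 in siB/siM (quantile normalization). The shares of all genes called higher were 42.3% in siBCL11A, 45.2% in siMBNL1 and 51.3% in siB/siM. NOG, noggin, a secreted antagonist of BMP ligands, changed by −1.19, −1.25 and −1.03. FST, follistatin, which binds activins, rose by 0.92 in siBCL11A, 0.41 in siMBNL1 and 0.77 in siB/siM, and was higher in siBCL11A than in siMBNL1 by 0.51. PMEPA1, a membrane protein that restrains SMAD signalling, changed by −0.75 in siBCL11A, −0.32 in siMBNL1 and −0.53 in siB/siM. It was lower in siBCL11A than in siMBNL1 by −0.43.

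Known targets of TGF-beta did not move in one direction. Of 17 genes, 5 were higher and 5 lower of 10 with values in siBCL11A, 3 and 3 of 6 in siMBNL1, and 4 and 4 of 10 in siB/siM. Of all genes tested, 42.3%, 45.2% and 51.3% were called higher and 46.9%, 49.1% and 35.5% lower. The medians of the targets were 0.02, 0.01 and −0.00, against −0.22, −0.25 and 0.24 over all genes. Over genes with values in all blocks, the siB/siM median was −0.18. Calls not made in some settings were JUNB in siBCL11A (centring), and SNAI2 (quantile normalization) and CXCR4 (replicate block) in siB/siM. TAGLN, an actin-binding protein, rose by 1.03, 0.68 and 1.45 in siBCL11A, siMBNL1 and siB/siM. ANGPTL4, a secreted lipase inhibitor, changed by −0.95, −1.02 and −1.05, and COL1A1, a collagen chain, by −0.91, −0.80 and −0.73. CDKN1A, the p21 inhibitor of cyclin-dependent kinases, was lower in siBCL11A (−0.49) and higher in siMBNL1 (0.50), and the difference between these knockdowns, −0.996, passed the test.

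Around ID3, few relatives had values. ID1, a paralog with the same mode of action, rose by 0.43 in siMBNL1 and 0.64 in siB/siM and has no value in siBCL11A. TCF3, an E protein and so a partner that ID proteins bind, rose by 0.68 in siB/siM. TCF12, another E protein, changed by 0.21 in siBCL11A, a call not made after quantile normalization, and by −0.46 in siMBNL1, and was higher in siBCL11A than in siMBNL1 by 0.66. Of the 9 genes in this list, ID3 included, 2 of 2 with values were higher in siBCL11A, 2 of 3 higher and 1 lower in siMBNL1, and 3 of 3 higher in siB/siM. Of all genes tested, 42.3%, 45.2% and 51.3% were called higher in the same order, and 49.1% lower in siMBNL1. The ID3 call in siMBNL1 was not made under the replicate block.

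In the MYC network, the antagonists MXD4 and MXI1 fell where MYC rose. MXD4, which competes with MYC for MAX, changed by −1.11 in siBCL11A, −0.81 in siMBNL1 and −0.84 in siB/siM. MXI1, of the same family, changed by −0.78 in siBCL11A, −0.43 in siMBNL1 and −0.66 in siB/siM. It was lower in siBCL11A than in siMBNL1 by −0.35, a call not made after centring on the median or under the replicate block. MXD3, a further member of that family, went against this in siB/siM, where it rose by 0.96. KIAA1524, which encodes a protein that stabilises MYC protein by holding back a phosphatase, rose by 1.03, 0.86 and 0.87 in siBCL11A, siMBNL1 and siB/siM. BIN1, a protein that binds MYC and limits it, changed by −0.495 in siBCL11A, −0.49 in siMBNL1 and −0.41 in siB/siM. Over the 21 genes, MYC included, 5 of 8 with values were higher and 3 lower in siBCL11A. In siMBNL1, 3 of 7 were higher and 4 lower, and in siB/siM 6 of 12 were higher and 3 lower. Of all genes tested, 42.3%, 45.2% and 51.3% were called higher and 46.9%, 49.1% and 35.5% lower in the same order. Calls not made in some settings were MLX in siBCL11A (quantile normalization), MLXIP in siMBNL1 (replicate block), and FBXW7 (replicate block, quantile normalization) and PIM1 (quantile normalization) in siB/siM.

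Genes that MYC is known to activate rose in larger numbers. Of 26 genes, 16 of 18 with values were higher and 2 lower in siBCL11A (median log2 change 0.49, against −0.22 over all genes), 17 of 20 higher and 2 lower in siMBNL1 (0.36, against −0.25), and 18 of 23 higher and 2 lower in siB/siM (0.54, against 0.24), where 42.3%, 45.2% and 51.3% of all genes were higher. The siB/siM median of all genes was −0.18 in place of 0.24 over those with values in all blocks. Of all genes, 46.9% were called lower in siBCL11A, 49.1% in siMBNL1 and 35.5% in siB/siM. After quantile normalization LDHA, lower in siBCL11A, turned its sign and was not called, and NPM1, EIF4E and PTMA were not called in siB/siM. DKC1, dyskerin of the telomerase and pseudouridine complexes, rose by 1.14, 0.96 and 1.1. PPAT, the first enzyme of purine synthesis, rose by 1.11, 1.01 and 1.18, and CAD, which starts pyrimidine synthesis, by 0.80, 0.43 and 0.75. CCND2, cyclin D2, changed by −0.72, −0.67 and −0.71, from a low level of 1.33 RPKM in siNS. In siBCL11A against siMBNL1, 3 of 16 were called, all higher, DDX21, an RNA helicase of the nucleolus, by 0.68, CAD by 0.37 and GNL3, nucleostemin, by 0.24, of which GNL3 was not called after quantile normalization. In siB/siM against siMBNL1, 4 of 19 were higher and none lower, and after quantile normalization 1 was higher and 4 lower. Of all genes tested, 7.02% were called higher and 11.9% lower in siBCL11A against siMBNL1. In siB/siM against siMBNL1 these shares were 5.76% and 5.81%. Genes repressed by MYC were mixed, with NDRG1, a stress-response gene, at −0.65 and GADD45A, a growth arrest gene, at 0.61 in siBCL11A, and CDKN1A belongs to this list as well.

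**Figure D3:**
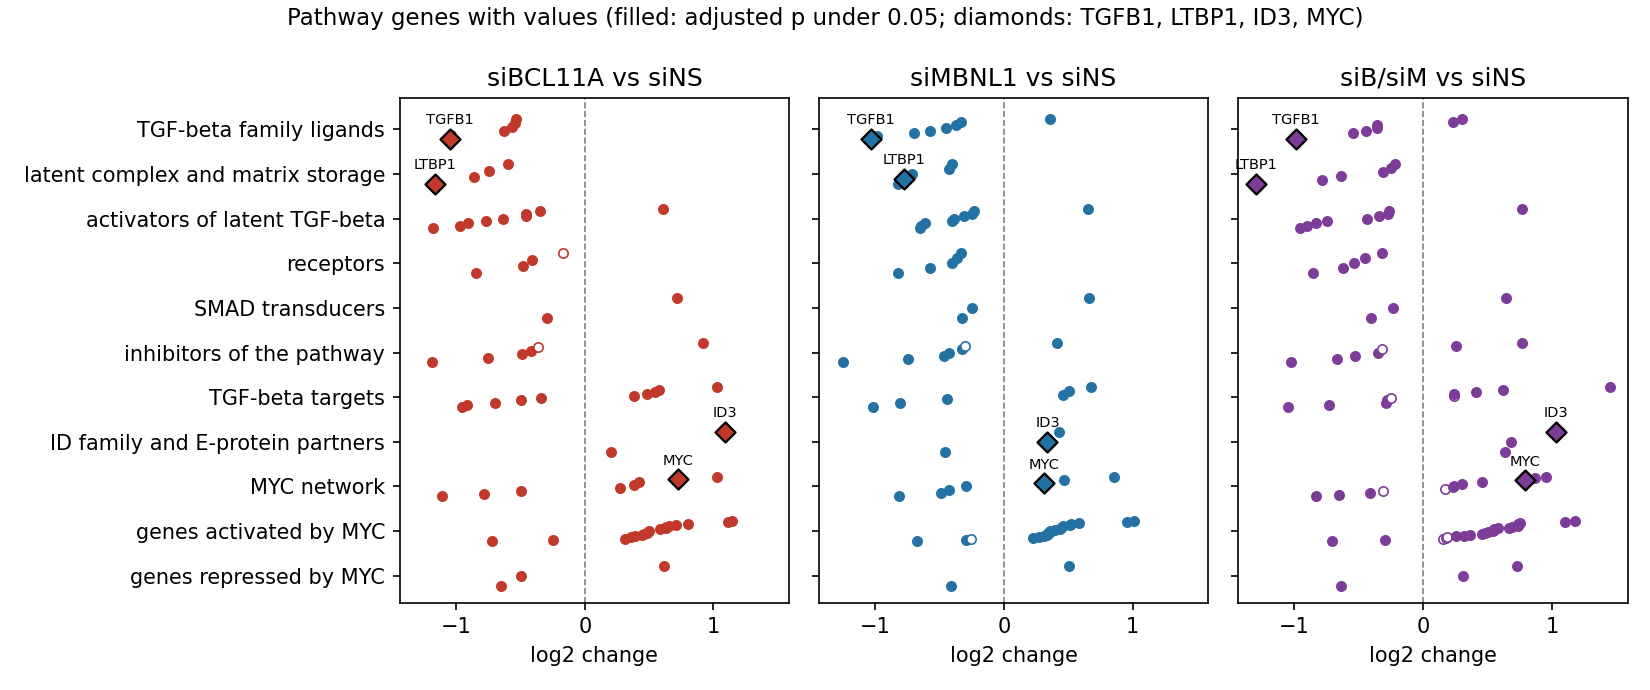
Log2 change against siNS of the genes with values in each list (rows), in siBCL11A, siMBNL1 and siB/siM; filled points have an adjusted p under 0.05 and diamonds mark TGFB1, LTBP1, ID3 and MYC. Latent complex genes lie left of 0 in all 3 panels and most genes activated by MYC lie right of 0, while TGF-beta targets lie on both sides.

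The genes with levels most like each of the 4 over the 11 libraries were taken by Pearson's r on log2(RPKM + 1), among 3148 genes with values in all libraries. The libraries fall into 4 groups and the genes were listed for a change against siNS, so the r values describe the group pattern and have no test. For TGFB1 they were TANC1 (0.976), SHC1, an adaptor of receptor tyrosine kinases (0.975), and NOG (0.974). SHC1 averaged 32.2 RPKM in siBCL11A, 31 in siMBNL1 and 31.3 in siB/siM, against 50.2 in siNS, the flat pattern of TGFB1. For LTBP1 they were LPXN, a focal adhesion protein (0.994), PLAT, tissue plasminogen activator (0.993), and TBC1D9 (0.989). LPXN averaged 8.04 RPKM in siBCL11A, 12.9 in siMBNL1 and 6.7 in siB/siM, against 32.5 in siNS, in the graded order of LTBP1. For ID3 they were SETD8, a histone methyltransferase (0.977), ITPRIPL2 (0.976) and EIF4G1, a scaffold of translation initiation (0.976). For MYC they were PPME1, a phosphatase methylesterase (0.983), KLHL21 (0.974) and ATF4, a factor of the amino acid stress response (0.972). ATF4 averaged 105 RPKM in siBCL11A, 67.3 in siMBNL1 and 103 in siB/siM, against 55.2 in siNS.

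Markers of other cell types moved with the groups. Of 6 immune markers, CD14, CD68 and CSF1R had values, and their sum was 27.8 to 31.5 RPKM in siBCL11A, 33.4 to 38.8 in siMBNL1 and 26.7 to 28.3 in siB/siM, against 60.5 to 62.4 in siNS. Most of that sum was CD68, which averaged 28.4, 34.5 and 26.6 RPKM in the same order, against 56.8 in siNS. CD14 averaged 0.141, 0.404 and 0.181 RPKM, against 1.96, and CSF1R 0.65, 1.36 and 0.771 RPKM, against 2.74. Of 8 endothelial and fibroblast markers, PDGFRB alone had values in all libraries, at 0.396 to 0.63 RPKM in siBCL11A, 0.657 to 0.818 in siMBNL1 and 0.428 to 0.585 in siB/siM, against 2.24 to 3.1 in siNS. KDR, of the same list, averaged 0.353 RPKM in siBCL11A and 0.398 in siB/siM, against 1.19 in siNS. The luminal and epithelial markers GATA3, KRT18, KRT19 and SPDEF summed to 543.6 to 586.4 RPKM in siBCL11A, 612.7 to 637.3 in siMBNL1 and 574 to 603.8 in siB/siM, against 698.4 to 744.5 in siNS. Within that sum KRT18 was higher, at 382, 366 and 376 RPKM in siBCL11A, siMBNL1 and siB/siM, against 308 in siNS, a call not made in siB/siM after quantile normalization, and KRT19, SPDEF and GATA3 were lower, with GATA3 in siBCL11A not called after quantile normalization. EPCAM averaged 4.94 RPKM in siBCL11A and 6.28 in siB/siM, against 8.93 in siNS. VIM and CAV1, markers of the line, summed to 1242 to 1277 RPKM in siBCL11A, 1269 to 1318 in siMBNL1 and 1196 to 1228 in siB/siM, against 1051 to 1090 in siNS. VIM was called higher in all 3 knockdowns, but in siB/siM its change turned its sign after quantile normalization. CAV1 averaged 179, 109 and 136 RPKM in siBCL11A, siMBNL1 and siB/siM, against 153 in siNS, and was called higher in siBCL11A and lower in siMBNL1. CD44 averaged 156 RPKM in siBCL11A and 158 in siB/siM, against 185 in siNS, and MSN 223 RPKM in siB/siM, against 247 in siNS, and these differences did not pass the test. No marker named here was at 0, the other markers of these lists are not analysed here, and the part of these markers in the results for the 4 genes was not tested.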

How the data were processed

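Total RNA of MDA-MB-231 cells, depleted of ribosomal RNA, was sequenced as stranded libraries, per the labels' protocols. The authors deposited RPKM per library in a block for each knockdown beside siNS, on hg19 per the submitters' processing notes; aligner and counter: not given in the sources used here. Each block also holds, per the file headers, log2 fold changes and log2 CPM, and p-values raw and adjusted. The largest adjusted p in the 3 blocks is 0.04998, 0.04982 and 0.04998, so genes with values passed the authors' test. The authors also deposited lists with a ratio (fold) of mean RPKM, and lists of exons with an inclusion fraction per group, whose depth is unknown.

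The siNS values were equal in the blocks for all 5516 genes found in several. Groups came from the sample titles. One linear model of the 4 group means was fitted with limma 3.58.1 in R 4.3.3 on log2(RPKM + 1), a gene without a block being fitted on the groups it has; genes needed a mean of 1 RPKM in a group, which all 8085 had. The prior had 4.83 degrees of freedom and an SD of 0.0814. Benjamini-Hochberg adjustment took the 23227 genes implied by the authors' p-values as its total, and calls needed an adjusted p under 0.05. The fit was tested on simulated data. Depth was inferred from 56 genes whose RPKM are whole multiples of the value of 1 read (within 0.05 reads), after 2 libraries that came out doubled were divided by 2; it is an effective size, and precision from it covers counting error only.

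The labels give groups the same replicate numbers. Across genes, same-numbered siBCL11A and siB/siM libraries deviated together from their group means (r = 0.33, 0.195 and 0.185), so these numbers may pair the 2 groups, on the data and not the labels; the values given come from the fit without a block, and fits with the replicate block are alternatives. Each other pair of groups had at least 1 negative r. Alternatives were another pseudocount, filter, scaling, variance trend, adjustment, fit of the compared groups only, replicate block and each library left out. Named list genes are up to 3 per list and comparison with the largest change among those called; other named genes were chosen after their values were seen. The members and lists were chosen with earlier results of these data known.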

Additional observations from a re-analysis of the deposited data

How the results depend on the processing

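Of 19 changes of TGFB1, LTBP1, ID3 and MYC that were called, 16 kept their direction and call in every alternative that could be run; the exceptions were ID3 and MYC in siMBNL1 against siNS and LTBP1 in siB/siM against the mean of single knockdowns. The ID3 change in siMBNL1 was 0.34 with a filter at 5 RPKM (limma, adjusted p = 0.0507), 0.36 with a pseudocount of 0.1 (adjusted p = 0.0613), 0.26 with a pseudocount of 5 (adjusted p = 0.0548) and 0.29 with the replicate block (adjusted p = 0.0913), and 0.26 to 0.40 with 1 library left out. With 1 library left out, MYC in siMBNL1 ranged over 0.26 to 0.38, and against the mean of single knockdowns LTBP1 ranged over −0.39 to −0.31 and MYC over 0.24 to 0.30. In that last comparison ID3 passed when adjusted over listed genes only (0.32, adjusted p = 0.0304), and MYC passed then (0.28, adjusted p = 0.0122), with a pseudocount of 5 (0.25, adjusted p = 0.0379) and with a variance trend (0.28, adjusted p = 0.0409).

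Counts of called genes moved most where few were called. For siB/siM against siBCL11A, with 92 genes, they were 456 adjusted over listed genes only, 45 centred on the median, 47 and 151 with pseudocounts of 0.1 and 5, 156 after quantile normalization, 152 with a trend, 64 with the replicate block, 39 with the block in the 2 groups alone (an alternative chosen after seeing the data) and 8 to 126 with 1 library left out. For siB/siM against siMBNL1, with 454, they were 993 over listed genes only, 300 in a fit of the 2 groups, 822 after quantile normalization and 262 to 454 with 1 library left out. For siBCL11A against siMBNL1, with 638, they were 1150 over listed genes only. For siB/siM against the mean of single knockdowns, with 56, they were 354 over listed genes only, 35 and 92 with pseudocounts of 0.1 and 5, 255 after quantile normalization and 8 to 53 with 1 library left out. Adjusting over fewer genes raises calls by construction; the cause was not tested for the other settings. Quantile normalization treats blocks that list different genes as equal in distribution. A filter at 1 RPKM removed no gene, so leaving it out changed nothing. The replicate block ended no other call of the 4 genes. By Spearman's rho, the 3 genes most like a member shared 1 with the 3 by Pearson's r for LTBP1, ID3 and MYC and 0 for TGFB1. With 2 siNS libraries, leaving one out rests on the spread of the other groups. Depth limits TGFB1 and ID3 more than MYC, whose reads are more numerous.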

Other observations

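The exon lists, which enter no comparison above, hold no exon of TGFB1, LTBP1, ID3 or MYC. One lies in a gene of the pathway lists, FN1, fibronectin, a matrix protein to which the latent complex is anchored. It is a cassette exon of 273 bases at hg19 chr2:216257654-216257926 on the minus strand, in the siBCL11A list. In the authors' deposited list its inclusion is 0.168 in siBCL11A and 0.294 in siNS, a difference of −0.126, with 1 value per group and so no spread between replicates.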
